A study of Mus musculus with 10 samples.

Results

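Repeat-masked regions of open chromatin far from annotated genes were examined in mouse sperm, after setting aside those that carry a long uninterrupted run of the dinucleotide CA (TG on the other strand). Such a region is called a member here. Peak intervals of 10 sperm libraries that overlapped by at least 1 bp were merged into 113493 regions, of which 24763 were found in at least 2 libraries and 24550 of these lay on chromosomes 1 to 19. A total of 10548 were distal, meaning that they lay more than 3 kb from every transcript start and overlapped no transcript of the GENCODE M21 annotation. The 1894 members were the distal regions with at least 80% of their bases repeat-masked in the mouse assembly mm10 (GRCm38) and with no run of 10 or more CA or TG units. A further 2215 distal repeat regions met the same masking limit but held such a run and are called CA/TG-run regions, and 1609 distal regions with at most 20% masked bases are called repeat-poor regions. The selection used position, sequence and presence in at least 2 libraries. It used neither the diet of the mice nor the height of the peaks beyond the limit for calling a peak.

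The libraries were made by ATAC-seq, in which a transposase inserts sequencing adapters where DNA is accessible and peaks mark sites with more inserted fragments than their surroundings. All mice were wild type C57BL/6JRccHsd males, and mature sperm were taken from the cauda epididymis, 1 mouse per library. The F0 CD group (6 libraries by title) received chow diet and the F0 WD group (4 libraries by title) received Western diet, with 40% of energy from fat and 43% from carbohydrate, for 6 months from 4 weeks of age. The protocol text in the labels gives the group sizes the other way round, so every direction between diets below rests on the titles. The comparison asks whether a father's diet goes with a different set of open regions in sperm.

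Sperm chromatin is mostly packed with protamines, and the nucleosomes that remain hold only a small part of the genome. Repeat-masked DNA includes interspersed elements, which are copies left by transposons, and simple repeats, in which a short unit is repeated head to tail. CA/TG runs are the most common dinucleotide simple repeats of mammals, and AACCCT, on either strand, is the unit of the telomeres that cap chromosome ends.

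The label held by its rule only: no member had a run of 10 CA or TG units, but most members were broken CA/TG repeats. At least 34 members held an unbroken alternation of C and A, or T and G, over 20 bases. The rule admits these because the alternation begins with A or G and so holds fewer than 10 CA or TG units. A CA/TG stretch was counted wherever C and A, or T and G, alternated over at least 6 bases. Such stretches covered a median of 34.0% and a mean of 32.2% of a member's bases, with a longest stretch of 13 bp in the median member. The mean was 49.5% in CA/TG-run regions, 24.3% in the 4830 other distal regions and 2.85% in repeat-poor regions. It was 27.1% over all 24550 regions on chromosomes 1 to 19, and 1.58% over those chromosomes as a whole. High CA/TG content was thus common in the peak set and not particular to the members. The stretches covered at least 40% of the bases in 623 members (32.9%, against 26.9% of all 24550 regions). They covered from 10 to 40% in 960 (50.7%) and under 10% in 311 (16.4%). The 3 bands were drawn after the values had been seen and serve only as description.

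The sequences of 4 members are shown first because their interrupted CA/TG stretches are what most members shared. In the order shown, the stretches covered 76.2, 41.3, 35.1 and 23.7% of the region, against a median of 34.0% over members. The first is thus far richer in CA/TG than most members. Each sequence is 120 bases of the plus strand of mm10 around the strongest summit of the region in any library. The bases were read from the reference genome and not from the reads, and capitals mark the CA/TG stretches of at least 6 bases.
Leading region of family 1, near Xpa (chr4:46219269-46219388): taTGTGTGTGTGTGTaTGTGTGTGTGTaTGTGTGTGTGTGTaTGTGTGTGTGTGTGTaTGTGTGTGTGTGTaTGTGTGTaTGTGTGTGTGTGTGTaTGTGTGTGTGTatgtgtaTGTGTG
Chow-biased member near Gm16237 (chr8:125290309-125290428): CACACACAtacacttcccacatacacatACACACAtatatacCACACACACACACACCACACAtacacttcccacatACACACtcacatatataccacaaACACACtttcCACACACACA
Western-biased member near Htr5b (chr1:121533843-121533962): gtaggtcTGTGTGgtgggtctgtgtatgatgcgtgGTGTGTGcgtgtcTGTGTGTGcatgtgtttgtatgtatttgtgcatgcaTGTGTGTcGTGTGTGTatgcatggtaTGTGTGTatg
Strongest member, near Gm12142 (chr11:41632614-41632733): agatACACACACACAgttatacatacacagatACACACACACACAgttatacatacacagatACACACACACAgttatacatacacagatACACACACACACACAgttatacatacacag

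Short units other than CA made up a second, small set of members, and a member with the unit ACAGC is shown because it was found in all 10 libraries. In this 120-base window of the plus strand of mm10, capitals mark the longest uninterrupted run of the unit.
ACAGC member near Gm5626 (chr13:74529212-74529331): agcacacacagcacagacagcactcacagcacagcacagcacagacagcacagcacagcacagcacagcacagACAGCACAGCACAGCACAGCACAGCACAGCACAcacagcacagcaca

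Another set, shown for its lack of CA/TG, had few or no such stretches and included strongly enriched regions and regions whose sequence occurs in many copies in the genome. Capitals in these windows of the plus strand of mm10 mark CA/TG stretches of at least 6 bases, where there are any.
Member near Gm23225 (chr14:90980659-90980778): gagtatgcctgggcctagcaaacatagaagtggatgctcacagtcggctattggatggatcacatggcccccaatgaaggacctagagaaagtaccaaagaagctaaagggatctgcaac
Member near Gm39469 (chr9:124257575-124257694): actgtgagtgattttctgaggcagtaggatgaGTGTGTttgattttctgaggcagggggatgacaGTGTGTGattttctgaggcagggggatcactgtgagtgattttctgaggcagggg
Member near Gm13123 (chr4:144234718-144234837): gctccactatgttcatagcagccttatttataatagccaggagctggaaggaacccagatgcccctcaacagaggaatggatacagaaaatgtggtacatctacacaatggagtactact
Leading region of family 5, near Gm8947 (chr1:151188086-151188205): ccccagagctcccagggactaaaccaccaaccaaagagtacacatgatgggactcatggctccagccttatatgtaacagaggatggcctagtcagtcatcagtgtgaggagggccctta

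The interrupted stretches lay under the peaks themselves. In the 20-bp bin that ends at the strongest summit, 36.0% of member bases were in CA/TG stretches, compared with 4.18% of bases about 390 bp upstream. The same summit bin held 56.0% in the 623 members with the highest CA/TG content, 57.3% in CA/TG-run regions and 1.09% in the 311 members with the lowest. Masked bases made up 97.1% of the summit bin over all members and 38.1% about 390 bp upstream. Members were selected for a high masked share, so the high value at the summit follows from that rule. A fall outside the region towards the 33.5% masked in chromosomes 1 to 19 as a whole is also what such a selection gives. The size of the fall was not fixed by the rule. Around the 311 members poor in CA/TG, 69.7% of bases were still masked about 390 bp upstream.

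**Figure D1:**
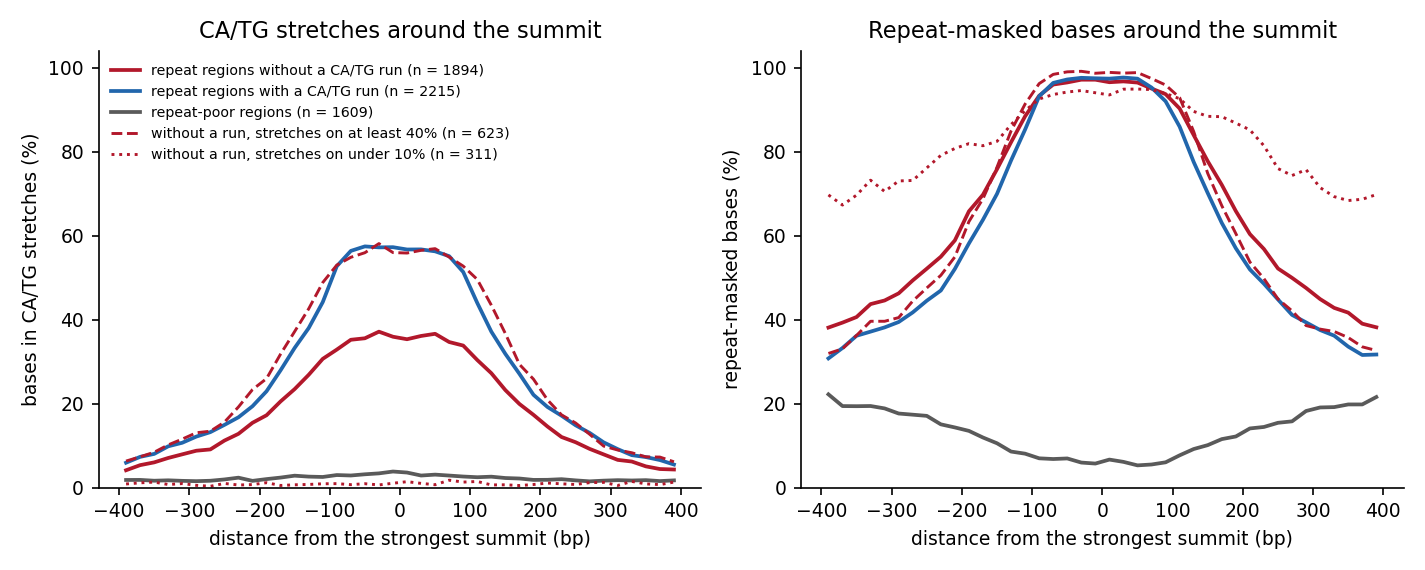
Percent of bases in CA/TG stretches (left) and percent of repeat-masked bases (right) in 20-bp bins against distance from the strongest summit (bp), with solid lines for members, CA/TG-run regions and repeat-poor regions, a dashed line for the members with at least 40% CA/TG and a dotted line for those under 10%. The solid member line is at 36.0% beside the summit and 4.18% about 390 bp upstream on the left, and at 97.1% and 38.1% on the right, where the dotted line stays at 69.7%.

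Members covered 0.763 Mb in total, with a median width of 368 bp, a median GC content of 42.0% (51.2% in repeat-poor regions) and a median masked share of 92.5%, and 344 members were masked throughout. The nearest transcript start lay at a median of 22984 bp. It belonged to a protein-coding gene for 589 members, to a lincRNA gene for 465 and to a processed pseudogene for 452. A nearest start is given as a landmark only, since no link between a region and that gene was measured. Chromosome 5 held most members, with 201 regions or 1.32 per Mb, and chromosome 7 had the lowest density, with 0.440 per Mb. The densest group was 10 members between chr5:14954000 and chr5:15061738, near Speer4e (a member of a multigene family), Gm10354 and Gm17019. They were found in a mean of 6.70 libraries and 3 of them in all 10, and 55.5% of the 50-base words in the median region of this group were unique in the genome.

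The peak lists differed in length, from 13366 peaks in F0 WD replicate 4 to 29532 in F0 CD replicate 2, and the smallest number of reads at a called summit was 9 to 13. As a check of the sample, none of 12 promoters of spermatid and sperm genes, 1 of 12 of epididymal epithelial genes (Gpx5, a secreted glutathione peroxidase of the epididymis) and none of 10 of immune cell genes held a region found in at least 2 libraries. Promoter peaks therefore gave no check of the cell type, and the part of other cells in the results was not tested.

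Most members were found in a minority of the libraries. Exactly 2 libraries held 629 members (33.2%), 335 were found in 3, 271 in 4, 213 in 5, 131 in 6, 122 in 7, 87 in 8, 59 in 9 and 47 in all 10. The mean was 4.09 libraries, compared with 4.78 for CA/TG-run regions and 2.79 for repeat-poor regions, of which 70.0% were found in exactly 2. A further 4480 regions met the position and sequence limits but were found in 1 library and were not members.

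**Figure D2:**
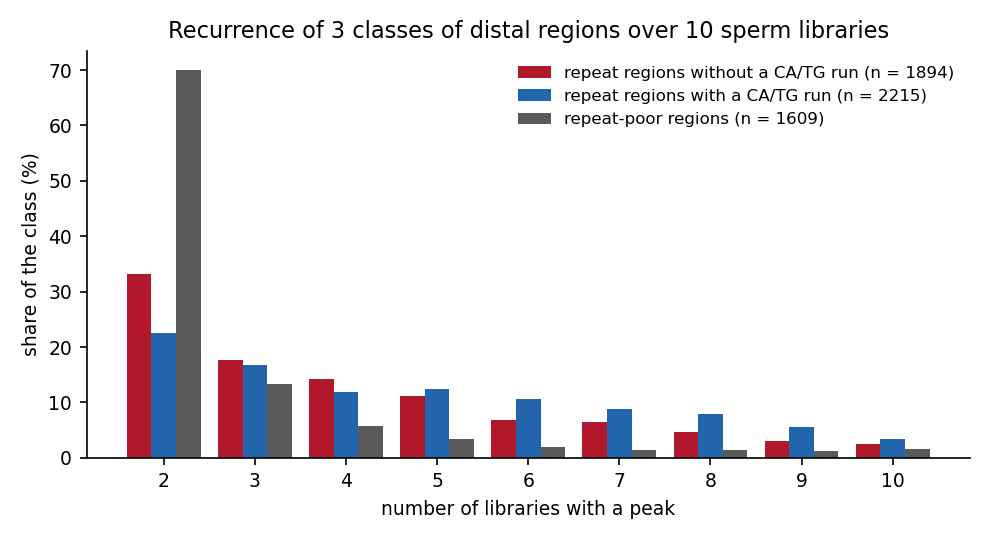
Percent of regions of each class (vertical axis) by the number of libraries in which a region was found (horizontal axis, 2 to 10). The other classes stand on either side of the members in the first bars: 33.2% of members, 22.6% of CA/TG-run regions and 70.0% of repeat-poor regions were found in exactly 2 libraries.

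The comparison between classes was made within each library, so that each list served as its own control. F0 CD replicates 1 to 6 held 691, 1260, 693, 736, 624 and 980 members, and F0 WD replicates 1 to 4 held 785, 794, 748 and 438. This was 40.9% ± 11.5 (SD, n = 10) of the members per library, against 27.9% ± 6.27 of the repeat-poor regions, 32.6% ± 8.54 of the other distal regions and 47.8% ± 11.9 of the CA/TG-run regions. Members were thus found more often than repeat-poor regions and less often than CA/TG-run regions. Presence in at least 2 of these same libraries admitted every region, and 70.0% of repeat-poor regions had this minimum. The p-values on the percent found therefore describe these regions and give no independent test of recurrence.

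The excess over repeat-poor regions was 13.02 percentage points (SD 7.47), positive in 10 of 10 libraries (exact sign-flip permutation test over libraries, two-sided p = 0.00195, the smallest the 1024 sign flips can give, and 0.00439 after Benjamini-Hochberg adjustment over 9 tests). It fell to 5.02 points when only regions in at least 3 libraries were kept, and the call was then lost (exact permutation p = 0.0586). The deficit to CA/TG-run regions was -6.91 points (SD 2.84), negative in 10 of 10 libraries (exact permutation p = 0.00195, adjusted 0.00439).

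Peaks at members were also higher than those at repeat-poor regions, but close to those at the other distal regions. The deposited fold enrichment of a peak is the read pileup at its summit over the local background. Its median over the members found in a library was 4.10 ± 0.361 (SD, n = 10) as a mean over libraries, compared with 3.798 ± 0.261 at repeat-poor regions and 4.26 ± 0.442 at CA/TG-run regions. At the 4830 other distal regions it was 4.10 ± 0.373, and members were not tested against these. The difference from repeat-poor regions was 0.306 (SD 0.139), positive in 10 of 10 libraries (exact sign-flip permutation test, two-sided p = 0.00195, adjusted 0.00439). It was 0.115 with regions in at least 3 libraries and 0.171 with lists of the same number of peaks, still past the threshold (exact permutation p = 0.0195 and 0.00195). The difference from CA/TG-run regions was -0.157 (SD 0.0994), negative in 9 libraries and equal in 1 (exact permutation p = 0.00391, adjusted 0.00703). The reads at the summit, recovered from the deposited fold and p-value, had a median of 17.2 ± 1.69 at members, 16.8 ± 1.75 at the other distal regions and 15.6 ± 1.96 at repeat-poor regions. Members were higher than repeat-poor regions by 1.60 reads (SD 0.516), in 10 of 10 libraries (exact permutation p = 0.00195, adjusted 0.00439), and by 0.7 with regions in at least 3 libraries (exact permutation p = 0.0312). Fold and reads are known only for peaks called in the same libraries that admitted the regions. The p-values on fold and reads therefore also describe these regions and give no independent test of peak height.

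**Figure D3:**
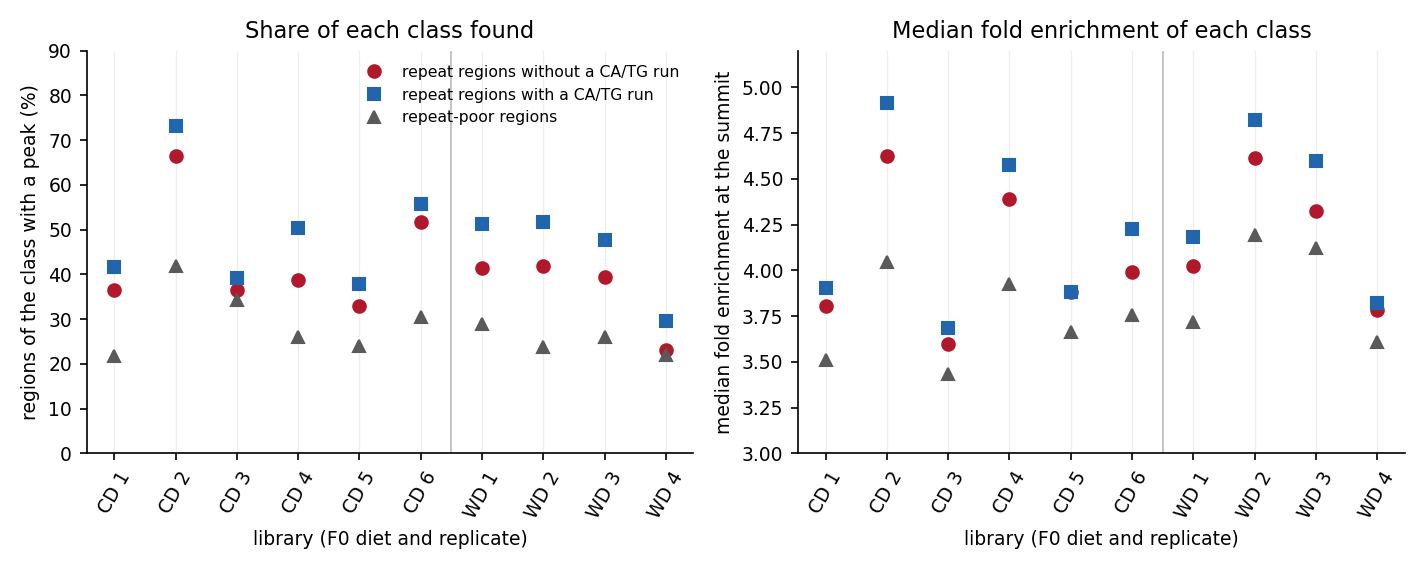
Percent of each class found (left) and median fold enrichment at the regions found (right) in every library, with 1 point per library and class and a right axis that starts at 3. In all 10 libraries the members lie above the repeat-poor regions on both measures, and below the CA/TG-run regions in the percent found.

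Recurrence was related to CA/TG content. Over the 1894 members, the number of libraries was correlated with the CA/TG share (Spearman's rho = 0.296), with the width (0.639) and weakly with the median fold (0.181). The correlation with the share of unique 50-base words was 0.0386 and with the masked share -0.0822. These are descriptions across regions that share the same 10 libraries, and a region grows wider by construction as intervals from more libraries are merged.

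Members with at least 40% CA/TG were found in a mean of 4.69 libraries, those from 10 to 40% in 3.97 and those under 10% in 3.25. Even so, 18 of the 311 members under 10% (5.79%) were found in all 10 libraries, against 20 of the 623 richest (3.21%) and 9 of the 960 between (0.938%). By library, a median of 46.3% (at most 75.9%) of the richest band and of 33.1% (at most 42.4%) of the poorest band were found, and the richest band was higher in 8 of 10. The order of the fold depended on how it was summarised. Over the members of each band the median fold was 4.22 in the richest and 3.99 in the poorest, whereas the median fold in a library had a median of 4.15 for the richest and 4.27 for the poorest band, with the richest higher in 2 of 10 libraries. The poorest band was above the repeat-poor regions in fold in 10 of 10 libraries.

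The 47 members found in all 10 libraries had a median fold enrichment of 3.17 to 18.2, with a median of 4.80, whereas no other member exceeded 7.75 and their median was 4.07. All 10 members with a median fold of at least 8 were found in all 10 libraries, and 9 of these 10 had under 10% CA/TG. Being found and being enriched come from the same peaks, so the pairing of these measures is a description. Among the 47, 18 had under 10% CA/TG, 20 had at least 40%, and 11 had fewer than 50% unique 50-base words. Their median width was 639 bp.

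The strongest member was chr11:41632515-41632848, which is 41393 bp from the start of the processed pseudogene Gm12142. Its fold enrichment was 16.2, 24.4, 16.03, 22.1, 17.6 and 18 in F0 CD replicates 1 to 6 and 18.4, 19.0, 20.8 and 10.4 in F0 WD replicates 1 to 4. The diets overlapped, and the lowest value was that of the library with the shortest peak list. As shown above, its summit sequence alternates blocks of CA units with a spacer that recurs unchanged, and CA/TG stretches covered 23.7% of the region. All of its 50-base words were unique in the genome.

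Of the next strongest, chr2:182012626-182013114 lies 21497 bp from the start of Gm14496 and ends 0.11 kb before the last base of the assembled chromosome 2. It held the AACCCT unit, and its fold enrichment was 12.1 to 14.7 in 5 of the F0 CD libraries and 10.3 in replicate 5. In F0 WD replicates 1 to 4 it was 11.6, 15.4, 17.5 and 11.5, within which the F0 CD values lay except for replicate 5. Only 31.1% of its 50-base words were unique, and the part of read placement in its fold was not tested.

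The member chr9:124257354-124257890 is 24249 bp from the start of the lincRNA gene Gm39469 and 237 kb from the last base of chromosome 9. Bases 93 bp apart were identical at 88.7% of positions, the highest share among the spacings tried. The window shown above also repeats at a shorter spacing, so 93 bp need not be the length of the unit. Even so, 95.3% of the member's 50-base words were unique. The fold of this member was 10.1 to 15.2 in the F0 CD libraries (median over all libraries 11.8) and 14.6, 11.2, 10.6 and 10.7 in F0 WD replicates 1 to 4.

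By contrast, chr14:90980567-90980880, nearest to the snoRNA gene Gm23225 at 127412 bp, is a high-copy sequence. Its median 50-base word occurred 1198 times in the genome and 21.5% of its words were unique. Its fold was 7.37 to 12.5 in the F0 CD libraries and 11.6, 10.6, 15.996 and 13.6 in F0 WD replicates 1 to 4, so the diets overlapped. The member chr18:14103188-14103481, nearest to the lincRNA gene AC165409.1 at 128828 bp, had a fold of 9.15 to 15.4 in the F0 CD libraries and of 14.8, 11.6, 12.98 and 11.5 in F0 WD replicates 1 to 4. Of its 50-base words, 44.1% were unique.

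**Figure D4:**
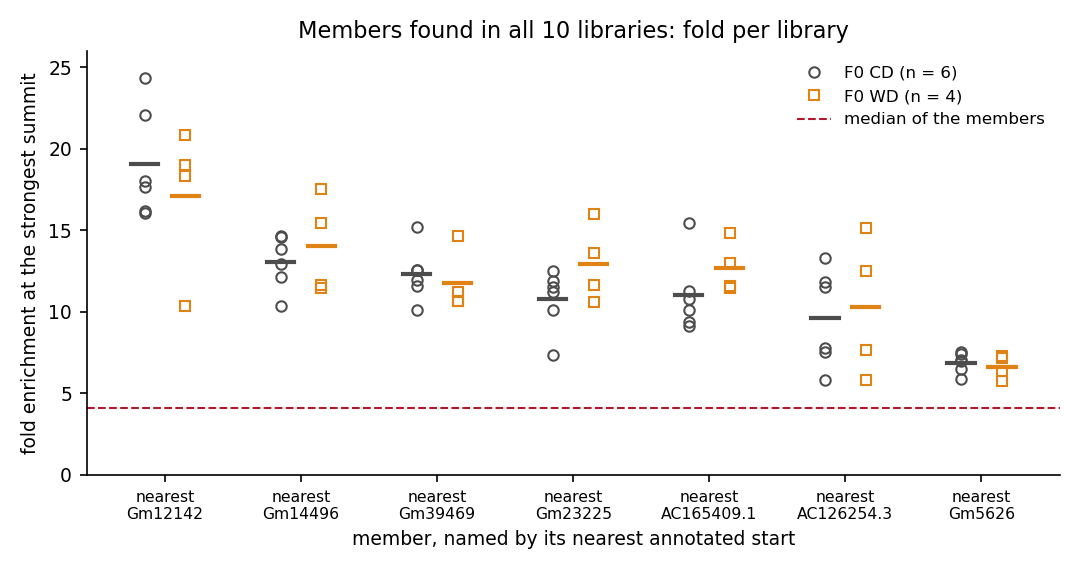
Fold enrichment (vertical axis) of 7 of the members named in the text, in each library. Circles mark the 6 F0 CD libraries, squares the 4 F0 WD libraries, short bars the group means and a dashed line the median of all members (4.08). Some of the members drawn were chosen after their values had been seen, and they are not the 7 strongest. The member chr2:181928965-181929458, with a median fold of 9.98, is not drawn. The member near Gm12142 ranges from 10.4 to 24.4, and the ranges of the diets overlap in each of the 7 members drawn.

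Members with the AACCCT unit were few and were examined after their values had been seen. A run of at least 20 bases of this unit marked 35 of all regions on chromosomes 1 to 19, of which 18 were distal and 5 were members. Besides the region at the end of chromosome 2, chr17:53152392-53152706 (near the processed pseudogene AC126254.3) was found in all 10 libraries. Its fold was 7.81, 11.9, 7.56, 13.3, 5.82 and 11.5 in F0 CD replicates 1 to 6 and 5.81, 15.1, 12.5 and 7.64 in F0 WD replicates 1 to 4, so the libraries of each diet spread over more than the difference between diets. This site is 41735 kb from the last base of its chromosome, so the unit lies there inside the chromosome. Of the 50-base words at this site, 56.4% were unique. The member chr13:110743935-110744608 was found in 9 libraries with a fold of 2.95 to 5.47, and the remaining ones were found in 4 and 2 libraries.

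The ACAGC unit marked 18 members, of 70 regions in all and 24 distal ones. These members were found in a mean of 7.33 libraries, 5 of them in all 10, compared with the mean of 4.09 over all members. Their median width was 589 bp and their median GC content 57.7%. The median share of unique 50-base words was 62.4% in these members, against 100% over all members. The part of read placement in their recurrence was not tested. At chr13:74528652-74530192, near the processed pseudogene Gm5626, the fold lay between 5.73 and 7.56 over the 10 libraries, and 43.6% of the 50-base words were unique. At chr5:101209907-101210988, near Cycs-ps2, it lay between 3.61 and 7.45.

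Similarity among members placed 846 of them in 56 families, each built around the member with most matches at 80% identity or more over at least 60% of both sequences. The families carry numbers only, since no annotation of repeat classes was used. Family 1 had 426 members with a median of 46.1% CA/TG, and family 2 had 83 with 48.3%. The smaller family was the more recurrent, with a mean of 7.30 libraries and 13 members in all 10, against 4.19 libraries and 1 member in family 1. The members of family 2 were also wider, at a median of 669 bp against 359 bp. Because a match had to cover at least 60% of both sequences, the families also sort members by width. Width grows by construction with the number of libraries merged, so differences in recurrence between families are a description only. The leading region of family 2 was chr8:25266259-25267076 near Tacc1 (a coiled-coil protein of the centrosome). Its folds were 3.23 to 5.31 in the 6 F0 CD libraries and 5.36, 4.88 and 5.63 in F0 WD replicates 1 to 3. F0 WD replicate 4 had no peak there, and 42.3% of the region's 50-base words were unique.

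Families 3 and 4, with 58 and 36 members, were also CA/TG-rich but were found in a mean of 3.26 and 2.64 libraries, with widths of 337.5 and 250.0 bp. Family 5, with 19 members and a median CA/TG share of 0%, was found in a mean of 2.11 libraries. Its leading region near Gm8947 had folds of 4.29 and 4.05 in F0 CD replicates 1 and 2 and 3.48 in F0 WD replicate 1. Family 9 was one of several high-copy families, and the median 50-base word of its median member occurred 2910 times. It was led by chr2:25646678-25646942, the member nearest to Lcn8, which encodes a lipocalin of the epididymis, and its 11 members had a median fold of 5.35.

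Copy number bears on how reads could be placed, because the reads were 50 bases long and up to 20 alignments per read were searched for. All 50-base words were unique in 1200 members (63.4%), fewer than 50% were unique in 112, and none in 7. The 68 members whose median word occurred at least 10 times were found in a mean of 3.47 libraries and had a median fold of 5.41, against 4.09 libraries and 4.08 over all members. The highest count was at chr4:144234656-144234912 near Gm13123, with 10479.5 copies of the median word. It was found only in F0 CD replicates 1 and 4, with folds of 5.27 and 6.36. The part of read placement in these values was not tested.

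Summits of the same member lay a median of 61.3 bp apart between libraries, against 62.0 bp in CA/TG-run regions and 81.0 bp in repeat-poor regions. Short motifs were searched on both strands in the 200 bp around the summit. GAGTTCNA, which occurs in the internal promoter of B1 and B2 short interspersed elements, was present in 17 members (0.898%) and in 1.30% of all regions on chromosomes 1 to 19. CCACNAGNG, from the core of the site bound by the insulator protein CTCF, was present in 7 members (0.370%), in 1.28% of all regions and in 4.29% of repeat-poor regions. A match is a description of the letters and no match says nothing of the factor.

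Just inside the masking limit, chr19:53570031-53570300 (80% masked) was found in 3 libraries with a median fold of 3.79, and chr10:118594429-118595404 (80.02% masked) in 9 with 4.75. Just outside it, chr1:180930190-180931108 (79.98% masked) was found in 6 with 3.59 and chr1:67108634-67109257 (79.97% masked) in 7 with 4.10.

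The diets were next compared over the members as a set. The 6 F0 CD libraries held 831 ± 244 members and the 4 F0 WD libraries 691 ± 170 (SD). The difference of -139 was smaller than the spread between libraries (exact permutation test over 210 splits, two-sided p = 0.381, adjusted 0.429). It was -53.6 without F0 CD replicate 2, the longest list, and -55.0 without F0 WD replicate 4, the shortest.

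Members made up 21.3, 20.8, 19.7, 19.3, 20.3 and 21.6% of the distal regions found in F0 CD replicates 1 to 6 and 19.0, 20.5, 19.4 and 17.7% in F0 WD replicates 1 to 4. The difference of -1.35 percentage points did not pass the threshold (exact permutation p = 0.0667, adjusted 0.1), and the groups overlapped. When each list was cut to the same number of peaks, it was -2.14 points with an exact permutation p of 0.0143. It was also past the threshold without F0 CD replicate 4 (-1.58, exact permutation p = 0.0476) and without F0 WD replicate 2 (-1.81, exact permutation p = 0.0357), and was -0.852 without F0 WD replicate 4. With at least 90% masked bases it was -0.751 (exact permutation p = 0.148). The median fold at members was 4.05 ± 0.385 in F0 CD and 4.19 ± 0.360 in F0 WD libraries, a difference of 0.139 (exact permutation p = 0.586, adjusted 0.586).

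The overlap of members between pairs of libraries was compared within and between diets. The Jaccard index (shared members over the members found in either library) was 0.221 to 0.467 over all 45 pairs, with a median of 0.308. The median was 0.313 over the 15 F0 CD pairs, 0.275 over the 6 F0 WD pairs and 0.299 over the 24 pairs across diets. It averaged 0.312 within a diet and 0.302 between diets, a difference of 0.00959 (exact permutation test, one-sided p = 0.200, adjusted 0.257), and -0.00107 without F0 CD replicate 6. The 5 differences between classes given above were also compared between the diets, and all 5 exact permutation p-values were at least 0.162.

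Peaks restricted to chow libraries were seen at 383 members, restricted to Western libraries at 65 and in both groups at 1446, with 6 libraries in the first group and 4 in the second. These were 20.2% and 3.43% of the members, against 21.8% and 5.26% of all 24763 regions, so neither share stood above the background. Each member was tested for presence by Fisher's exact test, two-sided, with adjustment over all 24763 regions. At an unadjusted p under 0.05, 6 members (0.317%) were found more often in F0 WD and 14 (0.739%) in F0 CD. Among all regions, 0.553% were called in the Western direction and 0.468% in the chow direction, so the members lay below this background in the first and above it in the second. Among CA/TG-run regions the shares were 0.858% and 1.13%, both above those of the members. The difference from the background was not tested, and the balance turned with lists of the same number of peaks, which gave 10 members in the Western and 9 in the chow direction. After Benjamini-Hochberg adjustment 0 members passed and every adjusted p by Fisher's exact test was 1, while the smallest unadjusted p the groups allow is 0.00476. Leaving out F0 CD replicate 2, 4 or 6, or replicate 4 of F0 WD, turned the 6 into 12 to 14, and leaving out replicate 2 of F0 WD turned it into 3. The 14 turned into 22 to 34 on leaving out F0 CD replicate 1, 3, 4 or 5, or replicate 1 or 3 of F0 WD.

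The clearest chow-biased member was chr8:125290189-125290498, 62866 bp from the start of the antisense gene Gm16237 and shown above. It had a peak in 6 of 6 F0 CD libraries, with folds of 3.51, 4.21, 3.31, 3.68, 4.21 and 5.21, and in 0 of 4 F0 WD libraries (Fisher's exact test, p = 0.00476, adjusted 1). The absence of a peak means only that the site did not pass the threshold, since no read counts were used here for such sites. Its summits held 13 to 24 reads, and the median percentile rank of its fold among the peaks of a library was 51.5%.

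The next chow-biased members were chr5:102227989-102228546 near Gm42933 and chr5:112406517-112407328 near Asphd2, each with a peak in all 6 chow libraries and in 1 Western one (Fisher's exact p = 0.0333, adjusted 1). At the first, the folds were 3.90, 7.25, 4.61, 6.36, 3.45 and 3.52 in F0 CD replicates 1 to 6 and 4.41 in F0 WD replicate 2, so the F0 WD peak lay within the range of the F0 CD ones. The other 11 were found in 5 chow libraries and in none of the Western group (Fisher's exact p = 0.0476, adjusted 1). They include members near Wnt4 (a secreted signalling protein of gonad development), Casz1 (a zinc finger transcription factor) and Mras (a small GTPase), at 15977, 26886 and 12149 bp, which were named after their values had been seen.

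Of the 6 Western-biased members, 5 were found in 3 Western libraries and in none of the chow group (Fisher's exact p = 0.0333, adjusted 1), near Htr5b, Gm46323, Atp23, She and Gm13070. Htr5b encodes a serotonin receptor and Atp23 a mitochondrial protease. The member near Htr5b, chr1:121533786-121534053, had folds of 3.67, 5.17 and 4.67 in F0 WD replicates 1, 3 and 4 with 15 to 21 reads at the summit. The sixth, near Nicn1, was found in 4 of 4 Western libraries and in 1 chow library (Fisher's exact p = 0.0476, adjusted 1).

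**Figure D5:**
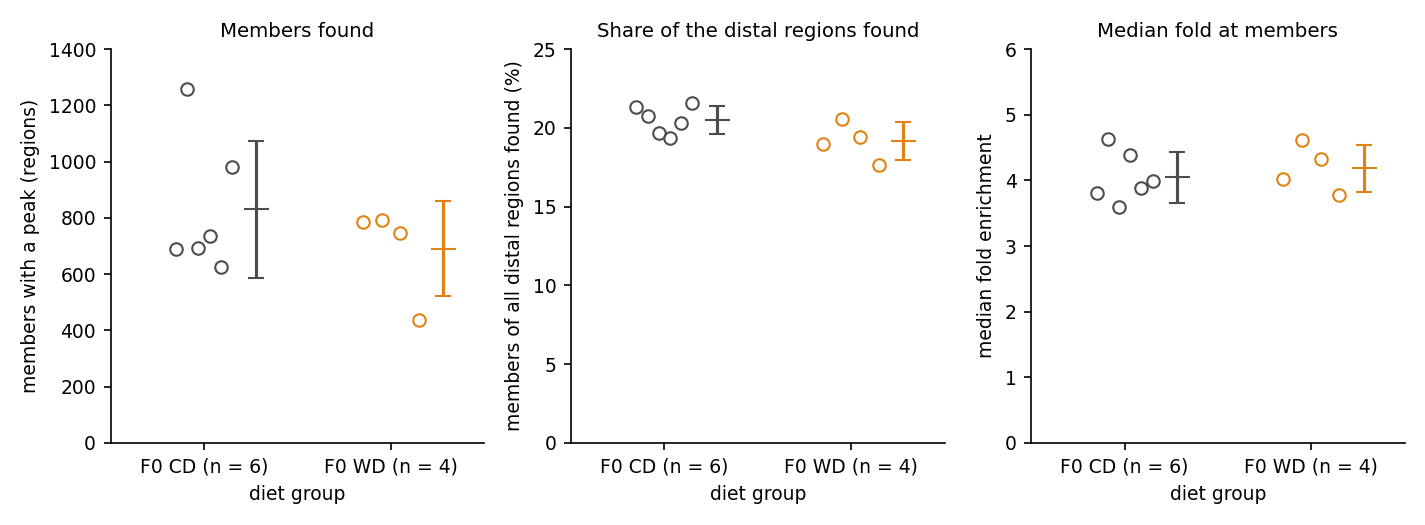
Number of members found (left), members as percent of distal regions found (middle) and median fold at members (right) in each library, by diet, with 1 point per library and, beside them, the group mean ± SD. The F0 CD libraries hold 624 to 1260 members and the F0 WD libraries 438 to 794, and the groups overlap in every panel.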

How the data were processed

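ATAC-seq peak lists of 10 sperm libraries, 1 list per mouse, were analysed. As the methods state, reads of 50 bases were trimmed with TrimGalore 0.6.10, aligned to mm10 with Bowtie2 2.4.5 with up to 20 alignments per read searched for, stripped of duplicates with Picard 2.24.0 and of alignments of quality under 5, restricted to short fragments and passed to MACS2 2.2.7.1 at a q-value limit of 0.05 in each library, not pooled. Per peak, the authors deposited a score, a fold enrichment (the ratio of pileup to local background, with a pseudocount) and −log10 values of p and q. No read counts or library depths were used here. The reads at a summit were solved from the deposited fold and Poisson p-value, where −log10 p was under 60, and 182970 of the 182970 summits tried came out whole within 0.001.

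Groups follow the sample titles (6 F0 CD and 4 F0 WD), whereas the extraction protocol in the labels gives 4 and 6. If the diet labels were exchanged, each difference of F0 WD minus F0 CD would change sign. Any other assignment of libraries to diets would need the differences to be computed anew. Nothing in the labels marks a batch. The numbering of replicates did not pair samples: presence deviated together with a correlation of -0.0109 to 0.0356 between same-numbered libraries.

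Members and lists were chosen with earlier results of these data known. Regions named by rule were the 5 best members called in each direction, the 5 best ranked of those found in most libraries, the leading region of the 5 largest families, the member with most 50-base copies and the regions next to the 80% limit. The AACCCT and ACAGC members were added after their values were seen. The sequences of some named members are not reported here. Diets were compared with exact permutation tests over libraries, classes with exact sign-flip tests, and single regions with Fisher's exact test and Benjamini-Hochberg adjustment. Scripts ran in Python 3.11.15 with numpy 2.4.6, scipy 1.17.1, pandas 2.3.3, numba 0.67.0 and matplotlib 3.10.9, families used BLAST 2.17.0, and the tests were tried on simulated data. Changes tried were a q limit of 0.01, merging within 100 bp, regions in at least 3 libraries, 90% masking, runs in either phase, lists cut to the same number of peaks, the mid-p, a replicate block and leaving out each library.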

Additional observations from a re-analysis of the deposited data

Results flagged for a closer look

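In 4 of 38 groups tested, 1 library stood far from the others of its group. The rule flags about 1 in 20 groups of independent, continuous values. That rate cannot be set against these flags, because the groups share libraries and the read differences are tied whole numbers. F0 WD replicate 4 held 438 members, against 748 to 794 in the other F0 WD libraries, and it also had the shortest peak list. In the same library the median summit held 1 more read at members than at repeat-poor regions, against 2 more in each other F0 WD library. At the member chr9:124257354-124257890, F0 WD replicate 1 had a fold enrichment of 14.6, against 10.6 to 11.2 in the other F0 WD libraries. At the member chr18:14103188-14103481, F0 CD replicate 1 had a fold enrichment of 15.4, against 9.15 to 11.3 in the other F0 CD libraries.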

How the results depend on the processing

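The peak lists hold sites that passed a threshold, so a missing peak is not a measured absence, and the lists' lengths set how many members can be found. The length of each list, the spread of 4 to 6 libraries and the discrete tests limit what can be told apart between diets. The members' share of distal regions, -1.35 points, passed the threshold with the same number of peaks per list (-2.14), was -0.751 at 90% masking and was -1.81 to -0.852 with 1 library left out, past it on leaving out F0 CD replicate 4 (-1.58) or replicate 2 of F0 WD (-1.81). The excess of members over repeat-poor regions lost its call with regions in at least 3 libraries (5.02 points, exact permutation p = 0.0586). Members called towards F0 WD, 6, numbered 3 at 90% masking, 10 with equal lists, 10 with the mid-p and 3 to 14 with 1 library left out (14 without F0 CD replicate 2, 12 on leaving out F0 CD replicate 4 or 6, or replicate 4 of F0 WD, and 3 on leaving out its replicate 2). Members called towards F0 CD, 14, numbered 7, 9, 35 and 15 to 34 in the same order (27, 34, 26 and 32 without F0 CD replicates 1, 3, 4 and 5, and 24 and 22 without F0 WD replicates 1 and 3). The median fold difference turned from 0.139 to -0.00386 without F0 WD replicate 2 and ranged to 0.272, and the Jaccard difference turned to -0.00107 without F0 CD replicate 6 and ranged to 0.0220. The cause of these changes was not tested.

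With the replicate block, paired over 4 same-numbered pairs, the difference between diets was -154 members (exact permutation p = 0.5), -1.12 points in share (exact permutation p = 0.125, the smallest possible) and 0.0822 in fold (exact permutation p = 0.750). McNemar's test over these pairs called 0 members in either direction and cannot reach 0.05. The numbers mark no shared animal, day or batch.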
